A study of Mus musculus with 3 samples.

Results

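The cytosolic ribosomal protein genes encode the proteins of the ribosome that works in the cytoplasm. They were taken from the count tables by symbol: *Rpl* or *Rps* followed by a number and at most 1 letter (a, x, l or y), plus *Rplp0*, *Rplp1*, *Rplp2*, *Rpsa* and *Rpl36al*, without symbols that mark a pseudogene. This gave 82 of 24062 gene symbols, 50 for the large subunit and 32 for the small subunit. No measured value entered this rule, although the members were chosen with earlier results of these data known. The mice carried the *tuft* mutation, a point mutation of *Tet1* that shortens the encoded enzyme, TET1, which oxidizes methylated cytosine in DNA. RNA of the rostrum, the front of the head, was sequenced from E9 embryos of 18 to 22 somites, with *tuft* homozygotes that had a neural tube defect (NTD) on the one side and embryos of the 3H1 Balb wild-type strain (WT) on the other. Each library was made from RNA pooled from 3 embryos, and 1 column of counts was used per genotype, so that no value has a replicate error and differences between embryos were averaged away within a pool. The records name 2 *tuft* samples beside 1 WT sample, and nothing ties the *tuft* column to the one or the other.

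The large subunit joins amino acids and releases the growing protein through a tunnel, while the small subunit binds the mRNA and reads its codons. A ribosome holds each core protein once, apart from the stalk proteins P1 and P2, and cells generally make these proteins in matched amounts. Their mRNAs are short and abundant in growing tissue, and many begin with a run of pyrimidines, the 5′ terminal oligopyrimidine (TOP) tract, through which mTOR signalling controls their translation. Nearly all of the genes contain introns, and mRNA copied back into the genome has left many processed pseudogenes that resemble the coding sequence.

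The starts of 6 members are shown because their pyrimidine runs and their read counts went different ways. Each is a stretch of 30 bases around an annotated transcription start, on the strand of the gene, from RefSeq (GRCm38.p6). The capitals mark the longest run of C or T within a window of 25 bases either side of the start. A run that crosses the edge of this window, as at the left end of the *Rps7* stretch, counted only by its bases inside. *Rpl27a* lies at chr7:109519186-109519215, *Rpl7a* at chr2:26910788-26910817 and *Rpl34* at chr3:130730330-130730359 on the reverse strand, with runs of 20, 21 and 20 bases. *Rpl38* lies at chr11:114668568-114668597 with a run of 10 bases, *Rps18* at chr17:33955648-33955677 on the reverse strand with a run of 11 and *Rps7* at chr12:28635951-28635980 on the reverse strand with a run of 5.
Rpl27a: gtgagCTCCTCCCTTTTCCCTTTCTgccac
Rpl7a: cacaaTTCCCTCTTCTTTCTTTCTCCagca
Rpl34: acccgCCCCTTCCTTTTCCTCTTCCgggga
Rpl38: ggaagcctcgTTCTTTCCCCgttctcttcg
Rps18: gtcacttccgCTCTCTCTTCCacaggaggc
Rps7: cttttcagaagagCTTCCggtttccaccca

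A run of at least 8 C or T letters in this window, read on the strand of the gene only, was present in 32 of the 61 members that had a promoter in the table (52.5%) and in 22.2% of 26964 other genes. Counted by start rather than by gene, it was present in 45.2% of the 73 windows of members and in 19.7% of all 32851 windows. Among members with such a run that passed the count filter described next, 5 of 31 were higher and 9 lower in *tuft*, with a median log2 fold change of -0.42. Over all genes tested, 17.4% were higher and 29.8% lower, with a median of -0.55, so that these members lay near the background. Among those with a shorter run, 7 of 26 were higher and 7 lower, with a median of -0.61. A match describes these letters and does not show where transcription began in these embryos.

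Fold changes are *tuft* over WT after scaling by trimmed means of M-values (TMM), and CPM are counts per 1000000 counts on genes, with the *tuft* values so scaled. A gene was tested where both libraries together held at least 10 counts. It was called higher or lower where the whole 95% counting interval of its fold change (exact, Clopper-Pearson) lay above 2 or below its inverse. These intervals cover counting error only, and the reads carry no molecular identifiers. No p-value is given, because 1 library stands for each genotype.

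*Tet1* itself (chr10:62804570-62887469), the mutated gene, had 435 counts in WT and 32 in *tuft*. Its fold change was 0.214 (0.145 to 0.307), so that it was called lower in the library labelled *tuft*.

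The WT library held 14251942 counts on genes and the *tuft* library 6433067, on 16914 and 11795 genes, and a count of 0 allows up to 0.21 CPM in WT and 0.613 TMM-scaled CPM in *tuft*. Entries with more than 1 alignment made up 51.4% of the WT and 59.2% of the *tuft* table. Of 8 markers of anterior neuroectoderm, *Six3* was called higher and *Rax* and *Hesx1* lower, and the others, *Sox2*, *Otx2*, *Lhx2* and *Pax6* among them, were not called. Of 6 markers of head mesenchyme and crest only *Twist1* was called, higher. Erythroid markers summed to 3153 CPM in WT and 46665 in *tuft*, with *Hbb-y* and *Hba-x* higher, *Hbb-bh1* not called and *Hba-a1* and *Hba-a2* at 0 in both. Yolk sac markers summed to 1429 CPM in WT and 235 in *tuft*, with 4 of 5 lower, and cardiac markers had at most 21 counts in WT and 0 in *tuft*. The precursor of ribosomal RNA, *Rn45s*, took 4.50% of the WT and 0.765% of the *tuft* counts. The part of these differences in the values of the ribosomal protein genes was not tested. In such bulk samples, fewer cells of a type and less RNA per cell cannot be told apart.

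Ribosomal protein genes were called in both directions, as were genes in general: 20 members were called higher in *tuft*, 22 were called lower and 36 were not called. The 78 members that passed the filter comprised 46 of the large and all 32 of the small subunit. The 20 higher members were 25.6% of the 78, beside 17.4% of all 13979 genes tested, and the 22 lower members were 28.2%, beside 29.8%. Their median log2 fold change was -0.14, with a middle range of -1.48 to 1.12, which spans 2.59, and over all genes tested the median was -0.55 and the middle range spanned 3.69. With library totals alone in place of TMM, 15 members were higher and 32 lower, so that 31.9% of the members called were higher instead of 47.6%, while over all genes this share went from 36.8% to 24.7%. By their counting intervals alone, 35 members lay above and 37 below a fold change of 1, and 6 had an interval that held 1.

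**Figure D1:**
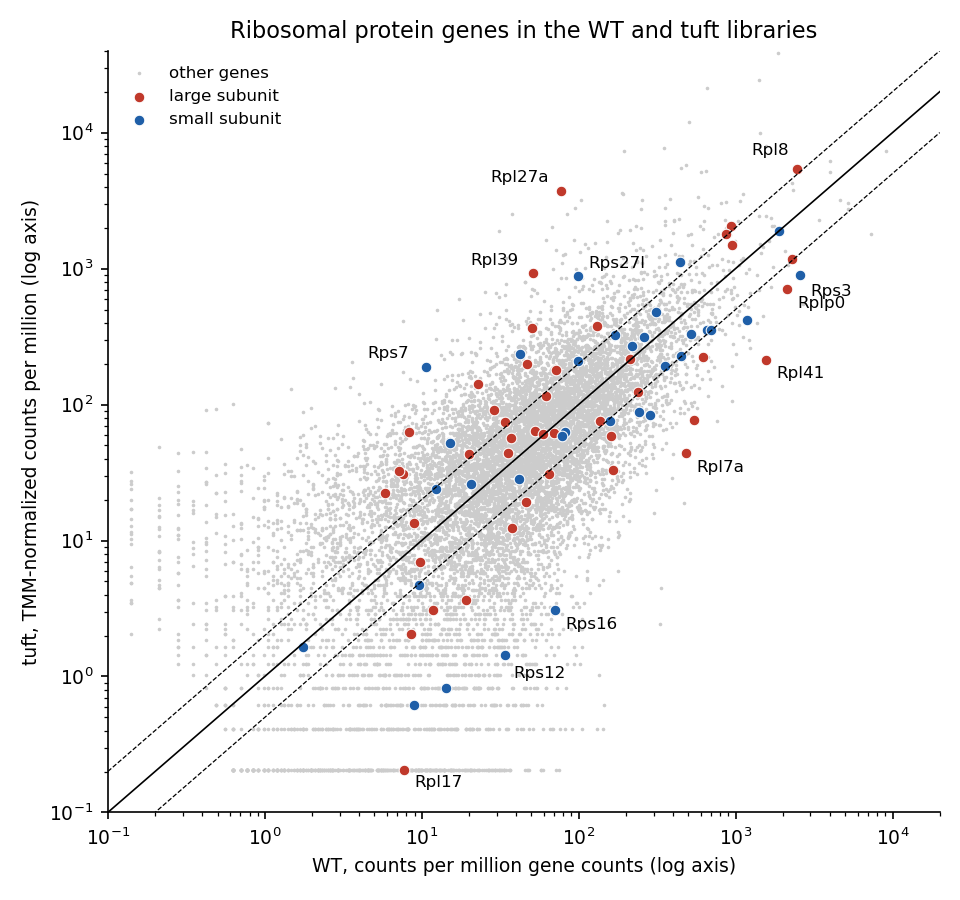
Level of each gene in the WT library (x axis, CPM) and the *tuft* library (y axis, TMM-normalized CPM), both on log axes, with large-subunit genes in red, small-subunit genes in blue and all other genes in grey. The solid line marks equal levels and the dashed lines a 2-fold difference. Genes at 0 in either library, *Rpl30* and *Rpl34* among them, are not drawn. Members lie on both sides of the lines, with *Rpl27a*, *Rpl39* and *Rps7* far above and *Rpl7a*, *Rps12* and *Rps16* far below.

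Of the 78 tested members, 40 had a mean of at least 100 CPM over both libraries, and these were set beside all genes at that level. Of the 40 members at this level, 13 were higher and 10 lower, with a median log2 fold change of 0.01. Of all 2647 such genes, 29.1% were higher and 12.6% lower, with a median of 0.36. Because the mean is over both libraries, a gene high in 1 library alone could pass and also be called. *Rps7* passed through *tuft* (10.7 CPM in WT, 189 in *tuft*) and *Rpl7a* through WT (481 and 43.7). This holds for every set at this level, and its part in the calls and medians was not tested. The large subunit gave 9 higher and 6 lower of 20 (median 0.34) and the small subunit 4 higher and 4 lower of 20 (median -0.34). The middle range of the log2 fold changes spanned 2.34 over the 40 members and 1.83 over the 2647 genes. Of 25 members with at least 1000 counts in both libraries, 7 were higher and 5 lower, with a median of 0.28. The WT library was the deeper by 2.22 times, yet 14 members had more raw counts in *tuft* than in WT, 10 of the large and 4 of the small subunit, and such genes were 13.8% of all genes tested and 19.9% of those at 100 CPM or more.

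The subunits took different shares of the libraries. Large-subunit genes held 1.49% (1.484 to 1.497) of the gene counts in WT and 1.56% (1.55 to 1.56) in *tuft*. Their order turned round when pseudogene symbols were added, to 1.59% in WT and 1.56% in *tuft*. In contrast, small-subunit genes held 1.10% (1.10 to 1.11) and 0.699% (0.692 to 0.705). The ratio of large- to small-subunit counts was thus 1.35 in WT and 2.23 in *tuft*. A few genes carried these sums. In WT, *Rpl8*, *Rpl4*, *Rplp0*, *Rpl41* and *Rpl32* held 63.1% of the large-subunit counts, and in *tuft* *Rpl8*, *Rpl27a*, *Rpl22*, *Rplp1* and *Rpl32* held 70.7%. All members together took 2.59% of the WT and 2.25% of the *tuft* counts as shares of the library totals, whereas on the TMM scale their sum was 25943 CPM in WT and 29624 in *tuft*.

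Of the 46 large-subunit genes tested, 15 were called higher, 14 lower and 17 were not called, with a median log2 fold change of 0.15 (middle range -1.56 to 1.28). These were 32.6% higher and 30.4% lower, beside 17.4% and 29.8% of all genes tested. The named genes are the 5 highest and 5 lowest fold changes among members with at least 100 counts in both libraries. *Rpl27a*, whose protein lies deep in the large subunit and which is mutated in the sooty foot ataxia mouse, had 1105 counts in WT and 18358 in *tuft*. Its fold change of 48.4 (45.5 to 51.5) was the highest among the members, and it was called higher. Of the gene counts of the *tuft* library, 0.285% fell on *Rpl27a* alone, against 0.00775% in WT. *Rpl39*, whose small protein lines the exit tunnel, had 727 counts in WT and 4508 in *tuft*, which is a fold change of 18.1 (16.7 to 19.6). It too had more raw counts in the shallower library.

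*Rpl36a* had 118 counts in WT and 308 in *tuft*, a fold change of 7.60 (6.13 to 9.48). *Rpl37a*, which encodes a zinc-binding protein, had 715 and 1774 counts and a fold change of 7.22 (6.62 to 7.89). *Rpl10*, whose protein joins the large subunit late and sits near the site where peptide bonds form, had 326 and 698 counts and a fold change of 6.23 (5.46 to 7.13). All 3 were called higher, as were *Rpl28*, *Rpl3*, *Rpl24*, *Rpl23a*, *Rpl13*, *Rpl36al*, *Rpl22*, *Rpl8* and *Rplp1*, with fold changes from 2.07 for *Rplp1* to 4.51 for *Rpl28*. The gene with the most large-subunit counts in both libraries was *Rpl8*, with 35294 in WT and 26301 in *tuft* and a fold change of 2.17 (2.14 to 2.205).

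*Rpl7a*, which carries 4 small nucleolar RNAs in its introns, had 6850 counts in WT and 214 in *tuft*. Its fold change was 0.0910 (0.0790 to 0.104), so that it was called lower. The start chosen for *Rpl7a* carries the longest pyrimidine run of the 6 shown. *Rpl41*, which encodes the shortest protein of the ribosome, had 22407 counts in WT and 1048 in *tuft*, a fold change of 0.136 (0.128 to 0.145). *Rpl7* had 7800 and 379 counts and a fold change of 0.141 (0.127 to 0.157). Both were called lower.

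At the stalk, where elongation factors dock on the large subunit, members went different ways. *Rplp0*, the base of the stalk, had 30152 counts in WT and 3464 in *tuft*, and its fold change of 0.335 (0.323 to 0.347) was called lower. *Rplp2*, one of its acidic tips, had 2351 and 162 counts and was called lower at 0.201 (0.170 to 0.235). *Rplp1*, the partner of *Rplp2* in the tip, had 12303 and 8758 counts and was called higher at 2.07 (2.02 to 2.13). Its interval began just above 2, and *Rplp1* was not called with the upper quartile or with library totals alone in place of TMM.

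Some large-subunit genes had almost no counts in *tuft*. *Rpl30* had 428 counts in WT and 0 in *tuft*, which makes it at least 49.0-fold lower in *tuft* when the floor of 3 counts per library is used. *Rpl34* had 42 and 0 counts and was at least 4.81-fold lower on the same floor. *Rpl17*, whose protein lines the exit tunnel, had 110 counts in WT and 1 in *tuft*, a ratio of 0.0265 (0.000664 to 0.151). Each of the 3 was called lower, together with *Rpl38*, *Rpl21*, *Rpl5*, *Rpl9*, *Rpl13a* and *Rpl35a*, whose fold changes lay between 0.191 and 0.366.

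Of the 32 small-subunit genes, 5 were called higher, 8 lower and 19 were not called, with a median log2 fold change of -0.48 (middle range -1.16 to 0.70). These were 15.6% higher and 25% lower, near the 17.4% and 29.8% of all genes tested. *Rps7*, whose loss of function gives mice with spotting and skeletal defects, had 152 counts in WT and 927 in *tuft*, a fold change of 17.8 (14.9 to 21.2). *Rps27l*, a paralog of *Rps27* known as a p53 target, had 1420 and 4286 counts and a fold change of 8.79 (8.28 to 9.34). Both were called higher and had more raw counts in *tuft*. *Rps4l* had 600 and 1156 counts and was called higher at 5.61 (5.08 to 6.20), but the annotation calls it a transcribed pseudogene and it overlaps *Tmtc1*, so that its reads are uncertain. *Rps27a*, which encodes ubiquitin fused to a small-subunit protein, had 215 and 257 counts and a fold change of 3.48 (2.89 to 4.19), and its span overlaps *Clhc1*. *Rps14*, on the platform of the small subunit, had 6344 and 5512 counts and a fold change of 2.53 (2.44 to 2.62), and these 5 genes were all that were called higher.

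*Rps19*, which assembles into the head of the small subunit, had 4085 counts in WT and 412 in *tuft*, a fold change of 0.294 (0.265 to 0.325). *Rps3*, at the site where mRNA enters, had the most counts of any member in WT, 36593, and 4397 in *tuft*, a fold change of 0.350 (0.339 to 0.361). Both were called lower, as was *Rps21*, with 3432 and 433 counts and a fold change of 0.367 (0.332 to 0.406).

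Another 4 small-subunit genes had under 20 counts in *tuft* and were called lower. *Rps16* had 1002 counts in WT and 15 in *tuft*, a fold change of 0.0436 (0.0243 to 0.0722). *Rps12* had 485 and 7 counts and a fold change of 0.0420 (0.0168 to 0.0873). *Rps18* had 204 and 4, and *Rps29*, which encodes a zinc-binding protein, had 128 and 3, a ratio of 0.0682 (0.0139 to 0.204). In contrast, *Rps2*, *Rps10*, *Rps15*, *Rps15a* and *Rps20* lay within the 2-fold lines, with fold changes from 0.630 to 1.24.

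Levels of different genes can only be compared per length, and were set as CPM per kilobase of coding sequence for the 80 members with a complete coding transcript. *Rpl41*, with 1572 CPM in WT, and *Rps4l* had no such transcript and are missing from this order. Among the 80 members, the highest levels in WT were those of *Rps3* at 3508 and *Rpl8* at 3200. In *tuft* the order began with *Rpl27a* at 8391, *Rpl8* at 6943, *Rpl39* at 5904, *Rpl22* at 5321 and *Rplp1* at 5187. Neighbours in such an order have no replicate spread to be compared with. *Rpl27a* stood at 173 and *Rpl39* at 327 in WT. Reads on noncoding parts of a transcript were counted too, while the divisor held coding bases only, so both orders depend on this choice of length. Coding bases were 447 of 1158 in *Rpl27a*, 156 of 612 in *Rpl39* and 732 of 1908 in *Rps3*, against 774 of 862 in *Rpl8*. No order by transcript length was made. Across the 78 tested members, the CPM of the libraries had a Spearman correlation of 0.77, as a description over genes of 2 libraries that share the same lengths and the same genome. Over the 2607 other genes with a mean of at least 100 CPM, which span fewer levels, it was 0.19. Those genes were selected by the mean of the same 2 libraries, a cut that can itself lower the correlation, and the 78 members were not. The 2 values therefore give no comparison of members with other genes.

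Paralogs, which resemble a parent gene closely enough that reads could be assigned to the wrong copy, were read with that limit. *Rps27* (chr3:90212667-90213648) and *Rps27l* (chr9:66944624-66949522) are shown over coding bases 4 to 63 of the GENCODE M1 transcripts, because the pair differed in direction of their raw counts and the letters that tell them apart, in capitals, number 19 of these 60 bases.
Rps27: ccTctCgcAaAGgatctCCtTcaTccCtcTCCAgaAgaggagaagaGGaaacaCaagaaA
Rps27l: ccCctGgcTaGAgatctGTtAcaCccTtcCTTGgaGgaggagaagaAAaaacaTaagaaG

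Their coding sequences were the same at 76.1% of 255 bases. *Rps27* had 25 counts in WT and 8 in *tuft*, a fold change of 0.932 (0.363 to 2.13) that was not called, beside the 8.79 of *Rps27l*. Of all 50-base windows of the *Rps27* transcript, 0.338% had no match elsewhere in the genome (NCBIM37), against 73.3% for *Rps27l*. The part of this difference in their counts was not tested. *Rpl36a* and *Rpl36al* shared 87.9% of 321 coding bases and were both called higher, at 7.60 and, with 1023 and 879 counts, at 2.50 (2.28 to 2.74). *Rpl3*, whose protein lies next to the peptidyl transferase centre, had 670 and 968 counts and was called higher at 4.21 (3.81 to 4.65). Its muscle paralog *Rpl3l* had 1 and 0 counts, *Rpl10l*, a retrogene known from testis, had 0 in both, and *Rpl39l* had 1 in each. Those 3 genes and *Rpl26*, with 1 and 0 counts, were the 4 members that failed the filter.

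The members were not evenly readable by uniquely aligned reads. Of all windows of 50 bases in the coding sequence, a median of 9.67% (middle range 0 to 28.5) per member had no match elsewhere in the mouse genome (NCBIM37), over the 80 members with a transcript, and 28 members had none. In 2460 other genes with at least 100 CPM the median was 100%. Under 50% of the coding windows were unique in 66 members (82.5%) and in 3.62% of the other genes. The annotation names 316 pseudogenes of 63 members, with 23 each for *Rpl31* and *Rps12*. The 28 members without a unique coding window included *Rpl27a*, whose whole transcript of 1158 bases had 57.8% unique windows through its noncoding parts, and *Rps12*, *Rps16*, *Rps29*, *Rpl17*, *Rpl10* and *Rpl36a*.

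**Figure D2:**
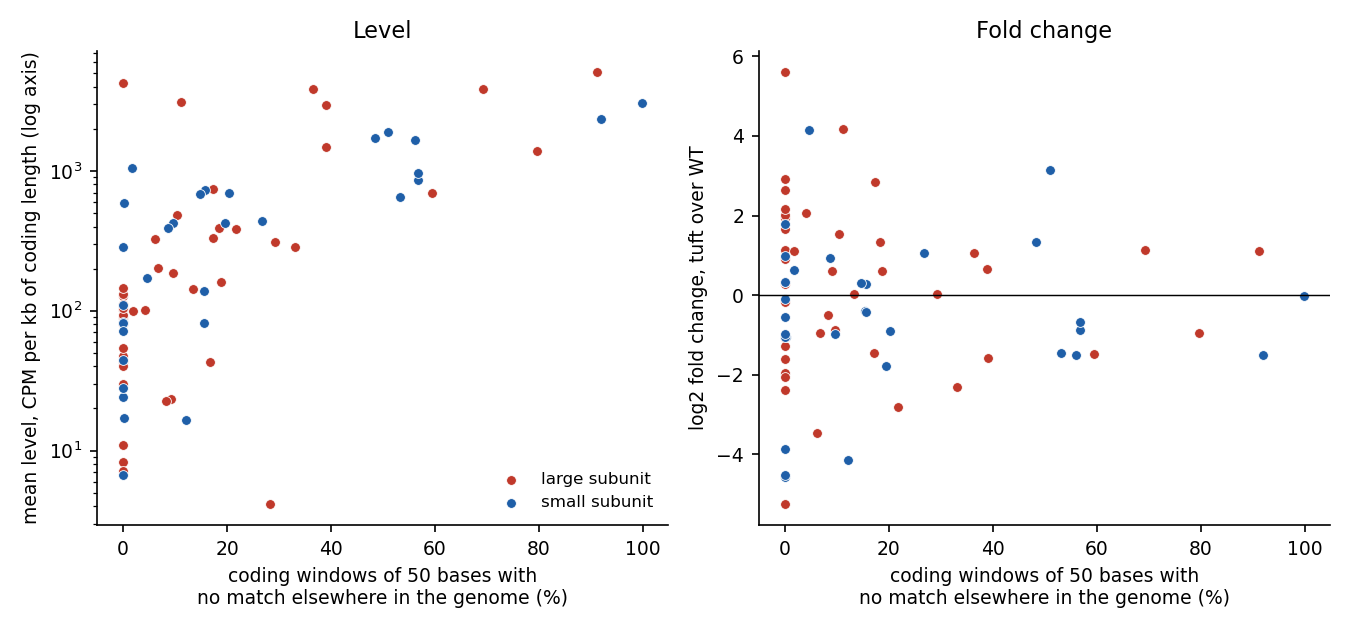
Share of 50-base coding windows with no match elsewhere in the genome (x axis, %) against the mean level in CPM per kilobase of coding length (left, log axis) and against the log2 fold change (right), for large-subunit (red) and small-subunit (blue) genes that were tested. Members at 0 in *tuft* are not drawn on the right. Levels are higher at larger shares, whereas fold changes spread on both sides of 0, from 5.60 (*Rpl27a*) to -5.24 (*Rpl17*) among genes with none.

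Across 76 members, this share had a Spearman correlation of 0.69 with the mean level per coding length (0.75 in WT and 0.60 in *tuft*) and of -0.07 with the log2 fold change. The points share 2 libraries and a genome, and many share a value of 0. The part of read mapping in these levels was not tested. Members with at least 50% unique coding windows were the best readable, and 11 of them passed the filter, of which 3 were higher and 4 lower, with a median log2 fold change of -0.89. *Rpl8*, *Rpl22* and *Rps27l* were the 3 higher genes, *Rps3*, *Rps21* and *Rpl13a* were among the 4 lower, and *Rps9*, *Rps15* and *Rpl4* were among those not called. With library totals alone in place of TMM, *Rpl8* and *Rpl22* were not called. Of 24 members with 10% to 50%, 6 were higher and 8 lower (median 0.03), and of 41 with less than 10%, 10 were higher and 9 lower (median -0.10). Over all genes tested, 17.4% were higher and 29.8% lower, with a median of -0.55. Among 89 genes outside the family with at least 100 CPM and under 50% unique windows, 43 were higher and 7 lower, with a median of 1.00, against 0.34 in the 2371 other such genes.

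Transcripts of the members were short, with a median of 774.5 bases against 3027.5 in the other genes at 100 CPM or more. Among those other genes, the median log2 fold change was 1.30 for 21 genes under 600 bases, 0.77 for 102 genes of 600 to 1000 bases, 0.45 for 510 of 1000 to 2000 bases and 0.28 for 1827 longer ones. Among the members the log2 fold change had a Spearman correlation of -0.09 with transcript length (n = 76). Introns of 29 members hold 58 small nucleolar RNAs, which guide modification of ribosomal RNA. Of these 29, 7 were called higher and 11 lower (median log2 fold change -0.95), and of the 49 tested members without one, 13 were higher and 11 lower (median 0.03), beside 17.4% higher and 29.8% lower of all genes tested.

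Mutations in some members have visible effects in mice, among them *Rpl24* (belly spot and tail), *Rpl38* (tail short, with changed translation of Hox mRNAs), *Rps19* and *Rps20* (dark skin), *Rps6*, *Rps7* and *Rpl27a*. Of these 7, *Rpl27a*, *Rps7* and *Rpl24* were called higher and *Rps19* and *Rpl38* lower. *Rpl24* had 109 counts in WT and 150 in *tuft*, a fold change of 4.01 (3.11 to 5.18), though its span overlaps *Zbtb11*. *Rpl38* had 274 and 18 counts and a fold change of 0.191 (0.112 to 0.308). *Rps6*, the target of S6 kinase, had 175 and 118 counts and was not called at 1.96 (1.54 to 2.49), nor was *Rps20* at 1.24 (1.16 to 1.32).

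Diamond-Blackfan anaemia is a congenital failure to make red cells, mostly caused by loss of 1 copy of a ribosomal protein gene. Of 19 members on the list of its genes, 18 passed the filter, of which *Rps7* was called higher and *Rps19*, *Rpl5*, *Rpl35a* and *Rps29* lower, with a median log2 fold change of -0.45. These were 5.56% higher and 22.2% lower, beside 17.4% and 29.8% of all genes tested, whose median was -0.55. *Rpl5*, which with *Rpl11* binds 5S ribosomal RNA and the p53 regulator MDM2, had 168 counts in WT and 15 in *tuft*, a fold change of 0.260 (0.142 to 0.441), and its span overlaps *Dipk1a*. *Rpl11* had 485 and 366 counts and was not called, at a log2 fold change of 1.14 (an interval of 1.91 to 2.52 in fold).

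**Figure D3:**
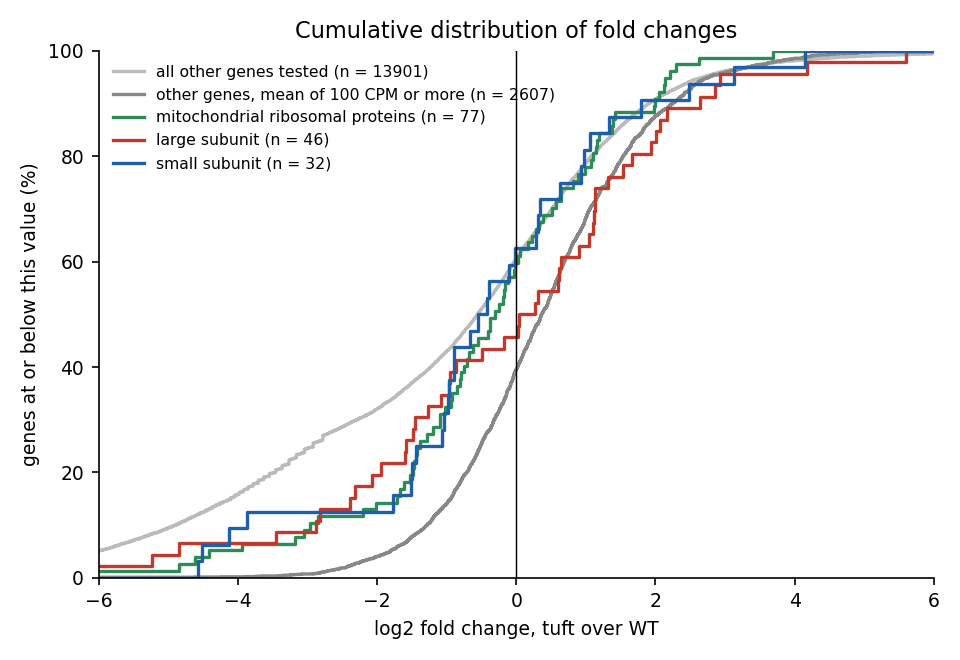
Cumulative share of genes (y axis, %) at or below each log2 fold change (*tuft* over WT, x axis), for large-subunit genes (red, n = 46), small-subunit genes (blue, n = 32), mitochondrial ribosomal protein genes (green, n = 77), all other genes tested (light grey, n = 13901) and other genes with a mean of at least 100 CPM (dark grey, n = 2607). Genes at 0 counts enter with 0.5 counts, and *Rpl30* lies beyond the left edge. By their medians, the small subunit (-0.48) and the mitochondrial genes (-0.31) lie right of all other genes tested (-0.56) and left of those with at least 100 CPM (0.36), and the large subunit (0.15) lies between these as well.

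Genes that work with the ribosome were counted from fixed lists, to be read beside the 17.4% higher and 29.8% lower of all genes tested. The median log2 fold change of all genes tested was -0.55. The ribosome of mitochondria is built from a separate set of proteins, and of its 77 genes 15 were called higher and 19 lower, with a median log2 fold change of -0.31. *Mrpl10* was the highest, with 1446 counts in WT and 6432 in *tuft*, a fold change of 12.95 (12.2 to 13.7). *Mrpl12* was the lowest of those with at least 100 counts in both, at 0.304 (0.275 to 0.336). Together these genes took 0.523% of the WT and 0.599% of the *tuft* counts.

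Of 6 further genes that encode ribosomal proteins, fusions or close paralogs but fall outside the symbol rule, 2 were called higher and 0 lower. *Rps3a1*, the gene for the small-subunit protein eS1, had 212 counts in WT and 628 in *tuft*, a fold change of 8.63 (7.37 to 10.1). *Rpl22l1*, the paralog of *Rpl22*, had 1132 and 2765 counts and a fold change of 7.11 (6.63 to 7.63). *Gnb2l1*, which encodes the small-subunit scaffold RACK1, had 48716 and 11142 counts, and its fold change of 0.666 (0.652 to 0.680) was not called, nor were those of *Fau* and *Rpl7l1*.

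Other mRNAs known for a TOP tract had a middle range of log2 fold changes from -0.81 to 0.12, and 16 of 18 were not called. *Eef1g*, a subunit of the factor that reloads EEF1A with GTP, had 4881 counts in WT and 382 in *tuft*, a fold change of 0.228 (0.205 to 0.253), and was called lower. *Eif4b*, a cofactor of the helicase that unwinds mRNA starts, was called lower too, at 0.419 (0.399 to 0.439). The highest, *Eif3e*, had a fold change of 2.05 (1.87 to 2.23) and was not called.

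RNA polymerase I and its factors transcribe ribosomal RNA, and of 19 such genes 2 were higher (10.5%) and 5 lower (26.3%), with a median log2 fold change of 0.18. *Taf1a*, of the promoter selectivity factor, was called higher at 2.62 (2.23 to 3.07), and *Polr1c*, a subunit shared by polymerases I and III, was called lower at 0.309 (0.278 to 0.343). Of 40 genes for ribosome assembly and processing of its RNA, 3 were higher (7.5%) and 12 lower (30%), with a median of -0.68. The lower share lay near the 29.8% of all genes tested. *Rrp9*, a protein of the U3 particle, had 2003 counts in WT and 2615 in *tuft* and was called higher at 3.80 (3.59 to 4.03). *Emg1*, a methyltransferase of the small subunit, had 3854 and 340 counts and was called lower at 0.257 (0.229 to 0.287). Of 9 tested genes for elongation and release, *Gspt1*, a release factor, was called higher at 2.30 (2.17 to 2.44), *Eef1g* and the release factor gene *Etf1* were called lower, and the median was -0.78.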

How the data were processed

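RNA-Seq of 1 pooled library per genotype was analyzed. Poly-A RNA was read single-end on an Ion Proton instrument, and the authors trimmed and filtered the reads with PRINSEQ before aligning them to mm10. The submitters' processing notes name Bowtie2 2.2.5, TopHat2 2.0.14, Cufflinks 2.1.1, SAMtools 0.1.18 and HTSeq. The deposited values are the whole-number counts that htseq-count gave for each symbol, without normalization. The version, overlap mode and strand setting of HTSeq and the release of the gene models are not given in the sources used here. The 5 summary lines that close each column were kept out of all totals. They held the entries that aligned to more than 1 place, 10.8% of entries in WT and 12.8% in *tuft* that fell on no gene, and 0.526% and 0.667% that were ambiguous between genes. Counts on genes were the remaining 37.3% and 27.4%. The columns were mapped to the genotypes by name.

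Counts were scaled with TMM (log ratios trimmed by 30%, levels by 5%), which gave a factor of 0.761 for *tuft*, the same as edgeR 4.0.16 in R 4.3.3. Folds, exact 95% intervals, calls and shares came from scripts (Python 3.11.15, scipy 1.17.1, numpy 2.4.6, numba 0.67.0, biopython 1.88, pandas 2.3.3, matplotlib 3.10.9) that were checked on simulated data. Counts of 0 entered log2 values as 0.5. A single library for each genotype leaves the quasi-likelihood test of edgeR without residual degrees of freedom, and neither replicates nor batches could be compared. NOISeq-sim, which the authors used, was re-implemented and served as an alternative (P_NOI above 0.95).

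Named genes are *Tet1*, the 5 highest and 5 lowest fold changes of each subunit among members with at least 100 counts in both libraries, members at or under 3 counts in a library, the stalk, the paralogs with their parents, members with classic mouse mutants, the anaemia list, and the highest and lowest gene of each companion list. Any other gene was named after its values had been seen. Some genes that the rule would name are not reported here by name, and they stay in the counts, medians and shares. The members and all lists were chosen with earlier results of these data known. RefSeq's gene table (GRCm38.p6) gave positions, pseudogenes, small nucleolar RNAs and overlaps for all 82 members. Windows and coding sequences came from NCBIM37 with GENCODE M1, from the complete coding transcript with the lowest name. The alternatives were library totals, the upper quartile, DESeq2's size factors, TMM without members, globins and *Rn45s*, other count filters, other fold thresholds, NOISeq-sim, members with fewer than 5 named pseudogenes, and shares without *Rn45s* and globins or with pseudogene symbols. NOISeq-sim on the CPM scale and the restriction to members with at least 50% unique coding windows were added after seeing the data.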

Additional observations from a re-analysis of the deposited data

Results flagged for a closer look

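*Rps15a-ps6*, a symbol that names a processed pseudogene of *Rps15a* and so lay outside the rule for the members, had 942 counts in WT and 1316 in *tuft*, which is 4.07-fold higher (3.74 to 4.43). It stood out because it lies outside the comparisons above and is higher in the mutant than in the WT control. *Rps15a* itself had 3706 and 1548 counts, which is 1.22-fold (1.15 to 1.29), and has 8 named pseudogenes. The 7 pseudogene symbols of the table together took 0.103% of the WT and 0.0288% of the *tuft* gene counts, and *Rpl14-ps1*, with 13623 counts in WT and 524 in *tuft*, held most of them in WT, while *Rps15a-ps6* held most in *tuft*. Whether reads were exchanged between these copies and their parent genes was not tested.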

How the results depend on the processing

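No paired analysis was possible because the genotypes share fewer than 2 replicate numbers and the columns carry none, and no library could be left out with 1 per genotype. The upper quartile, DESeq2's size factors and TMM without members, globins and *Rn45s* kept each subunit's counts and medians near the values above. Library totals alone turned the large-subunit median log2 fold change from 0.15 to -0.24, moved the small-subunit median to -0.88 and gave 13 lower small-subunit genes in place of 8. They gave 11 higher large-subunit genes in place of 15 and 19 lower in place of 14, beside 12.4% higher and 37.8% lower of all genes. *Rplp1*, *Rpl8*, *Rpl22* and *Rpl36al* were not called on that scale. A minimum of 10 counts in each library left 5 lower small-subunit genes, and over all genes it changed the share called lower from 29.8% to 17.7% and the share called higher from 17.4% to 22.7%. Of members with fewer than 5 named pseudogenes, 12 of 32 large-subunit genes were higher and 8 lower. Among the 23 small-subunit genes so restricted, 5 were higher and 4 lower, with a median of -0.10. All genes tested gave 17.4% higher and 29.8% lower. An interval past 1.5-fold gave 8 higher and 14 lower small-subunit genes (23.9% and 38.5% of all genes). Past 4-fold, 5 large-subunit genes were higher and 6 lower, and 3 small-subunit genes were higher and 4 lower (6.94% and 15.9% of all genes). NOISeq-sim called 17 large-subunit genes higher and 7 lower and 6 small-subunit genes higher and 5 lower, with 20.7% higher and 18.9% lower over all genes. On the CPM scale it called 15 higher and 5 lower and 6 higher and 3 lower, with 15.5% and 7.9% over all genes. With at least 50% unique coding windows, where 11 genes remained, 2 of 4 large-subunit genes were higher and 1 lower. Of the 7 small-subunit genes, 1 was higher and 3 lower, with a median of -0.89, beside 17.4% higher and 29.8% lower of all genes. Without *Rn45s* and globins in the totals, the large-subunit share was 1.57% in WT and 1.63% in *tuft* and the small-subunit share 1.16% and 0.730%. With pseudogene symbols the large-subunit share was 1.59% in WT and 1.56% in *tuft*, the reverse of the order without them, and the small-subunit share 1.11% and 0.719%. The cause of these differences was not tested. Counts in *tuft* were fewer by 2.22 times, so genes at 0 counts there are known only to a bound and those with 1 to 3 counts only within a wide interval, and counting intervals leave out the differences between embryos, pools and library preparations.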

Other observations

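The 4 members on the X chromosome were set apart after their values were seen. *Rpl10*, *Rpl36a* and *Rpl39* were called higher in *tuft*, and *Rps4x*, with 6369 counts in WT and 1114 in *tuft*, was not called at 0.509 (0.477 to 0.543). Of 64 other X-linked genes with at least 100 CPM, 32.8% were called higher and 12.5% lower, with a median log2 fold change of 0.39. *Xist*, the RNA that coats the inactive X chromosome of female cells, had 2846 counts in WT and 1009 in *tuft*, a fold change of 1.03 (0.960 to 1.11). Of 4 genes of the Y chromosome, *Eif2s3y* was called higher at 7.90 (6.15 to 10.2) and *Ddx3y* at 3.36 (2.58 to 4.38), *Kdm5d* was called lower at 0.0602 (0.0194 to 0.142) and *Uty* was not called. The number of male embryos in each pool is not given in the sources used here, and its part in these values was not tested.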
